A study of Mus musculus with 67 samples.

Results

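The Bcl2 family of apoptosis genes was followed in RNA sequenced from mouse forelimb buds with and without GLI3, a transcription factor of the Hedgehog (HH) pathway that acts in part as a repressor. The list held 10 genes: the BH3-only genes Pmaip1, Bbc3, Bcl2l11, Bmf and Bid, the effectors Bax and Bak1, and the guardians Bcl2, Bcl2l1 and Mcl1. They were selected by gene name from the 46983 gene IDs of the deposited tables, and all 10 were found and passed the filter on low values in every comparison. The list is named for Pmaip1, whose levels in these libraries were known when it was drawn up. Pmaip1 is therefore given as a description with no test, and members are counted over the other 9.

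The RNA came from 14 libraries, out of 67 samples of several assays in the series. At E9.25, before HH signaling begins in the limb, whole forelimb buds were taken from embryos of 21 to 23 somites, as 3 WT and 4 Gli3-/- libraries. At E10.5, after HH signaling has begun, only the anterior part of the bud was taken, from embryos of 32 to 35 somites, as 4 WT and 3 Gli3-/- libraries. The Gli3-/- embryos carried the Xt-J allele of Gli3 in every cell of the embryo, and the background was Swiss Webster. Each library pooled buds of several embryos, 4 pairs of buds in the younger and 2 pairs in the older embryos by the labels, with no age beyond the stage. Stage and dissected region changed together, so that the effect of one cannot be told apart from that of the other in any comparison of E10.5 with E9.25.

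Bcl2 family proteins decide whether the outer membrane of the mitochondrion is opened, the committing step of intrinsic apoptosis. The effectors Bax and Bak1 form the pore, the guardians bind and restrain them, and the BH3-only proteins respond to stress or loss of survival signals and either block the guardians or engage the effectors directly. Released cytochrome c then assembles with APAF1 to activate caspase 9 and the executioner caspases. In the limb bud, programmed cell death shapes the anterior and posterior margins and later frees the digits, and mice that lack Bax and Bak1 keep their interdigital webs. Much of the control of this family lies in protein binding, cleavage and turnover, which RNA levels do not show.

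Values are TPM, which scales reads by gene length and by library, so that levels can be set beside each other between genes. Estimated depth was 38.1 to 56.8 M reads per library. At 1 TPM a transcript thus drew 20.7 to 29.3 reads for each kilobase, and Pearson's r between replicates across genes was 0.975 to 0.988 at E9.25 and 0.985 to 0.992 at E10.5. All 5 limb mesenchyme markers were present in every group. Xt-J is a deletion within Gli3 that leaves part of the gene, whose RNA can still be counted. Gli3 RNA was 73.4 to 89.7 TPM in E10.5 WT and 38.7 to 40.9 TPM in E10.5 Gli3-/-. At E9.25 it was 44.2, 15.8 and 44.6 TPM in WT and 14.3 to 20.8 TPM in Gli3-/-, so that the library labelled E9.25 WT replicate 2 lay inside the Gli3-/- range. That library stood apart in other genes too, for example Birc6, at 7.57 TPM against 32.9 to 48.2 TPM in the other E9.25 libraries. Differences between groups are in log2(TPM + 1) and were tested with limma across all genes that reached a TPM of 1 in 3 or more libraries of the comparison. Low genes such as Pmaip1 at E9.25 appear to change less on this scale than in TPM. P-values are two-sided and adjusted over those genes by the Benjamini-Hochberg method, and a gene is called when its adjusted p is under 0.05. In bulk RNA, fewer cells of a type and less RNA per cell cannot be told apart.

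Effectors and guardians dominated the family at both stages. In E9.25 WT the order by mean TPM was Bax (158 ± 17.8, SD, n = 3), Mcl1 (101 ± 11.8), Bak1 (39.6 ± 8.25), Bcl2l1 (29.0 ± 4.03), Bcl2l11 (8.83 ± 2.89), Bid (5.87 ± 0.675), Bbc3 (5.39 ± 1.18), Bcl2 (4.01 ± 1.34), Bmf (3.97 ± 1.31) and Pmaip1 (1.24 ± 0.180). The replicates of neighbours in this order overlapped for Bak1 and Bcl2l1, and for each step from Bcl2l11 to Bmf, so that the order of the middle members is not resolved there. Pmaip1 stood last and apart from Bmf. In both genotypes at E10.5, Bax, Mcl1, Bak1 and Bcl2l1 kept that order relative to each other, but Pmaip1 was now the 5th most abundant member in WT, at 26.7 ± 5.73 TPM (SD, n = 4), and the 3rd in Gli3-/-, at 65.0 ± 22.5 TPM (SD, n = 3). The Gli3-/- replicates of Pmaip1, Bak1 and Bcl2l1 overlapped, so that their places there are not resolved.

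**Figure D1:**
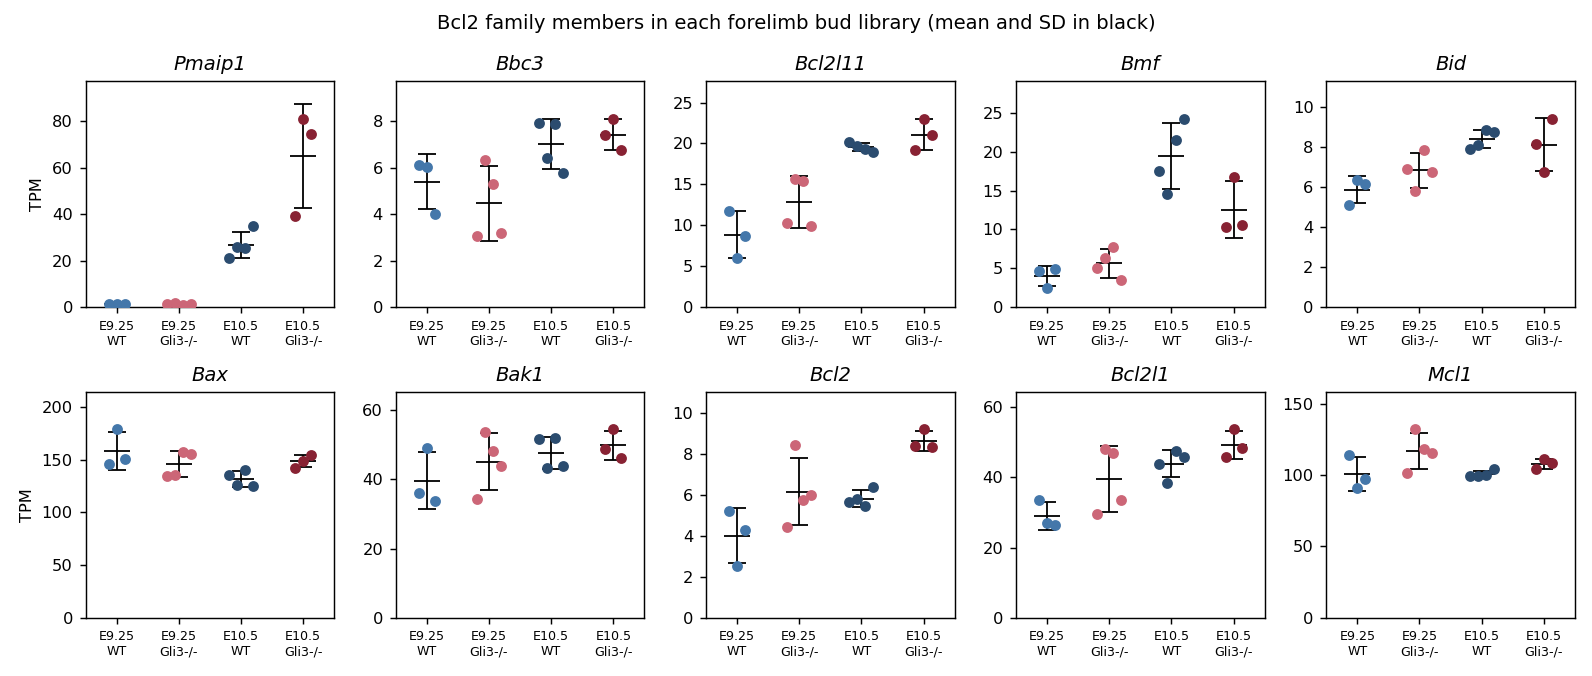
TPM of each of the 10 members (one panel each, vertical axis from 0) in every library of the 4 groups on the horizontal axis; points are libraries, and black bars are the mean and SD. Pmaip1 lay at or below 1.80 TPM in all 7 E9.25 libraries and between 21.1 and 81.1 TPM in the 7 E10.5 libraries, whereas Mcl1 stayed between 91.3 and 132 TPM throughout.

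Pmaip1 encodes NOXA, a BH3-only protein that chiefly binds MCL1 and is a known p53 target. Its RNA was near the limit of the filter in whole buds at E9.25, at 1.15, 1.13 and 1.45 TPM in WT and 1.22, 1.80, 0.902 and 1.13 TPM in Gli3-/-. It was far more abundant in anterior buds at E10.5, at 21.1, 25.6, 25.3 and 34.7 TPM in WT and 39.3, 81.1 and 74.5 TPM in Gli3-/-. The genotypes overlapped at E9.25, and at E10.5 every Gli3-/- library lay above every WT library, with the lowest Gli3-/- library near the highest WT library. The log2 difference between Gli3-/- and WT was 0.00 (SE 0.21) at E9.25 and 1.21 (SE 0.24) at E10.5, where the ratio of mean TPM was 2.44. It stayed between 1.02 and 1.53 when each E10.5 library was left out in turn. The median gene differed by 0.23 at E9.25 and by -0.02 at E10.5, so that relative to it Pmaip1 stood at -0.22 and 1.23. Between E9.25 and E10.5 the mean TPM of Pmaip1 was 21.4 times higher in WT and 51.4 times higher in Gli3-/-.

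Among the 9 other members, limma called 1 between genotypes at E10.5 and 0 at E9.25. At E10.5 the called gene was Bcl2, against a background of 4.77% of the 15654 genes tested and 1.84% called higher, and 3 of the 9 had an unadjusted p under 0.05 (Bcl2, Bmf and Bax), as did 3061 of all genes tested. At E9.25, 0.136% of the 14760 genes tested were called, and 0 of the 9 members had an unadjusted p under 0.05, compared with 3247 of all genes tested. The median difference of the 9 was 0.21 at E9.25 and 0.10 at E10.5, beside 0.23 and -0.02 over all genes tested. Between stages, 4 of the 9 rose in WT (Bmf, Bcl2l11, Bcl2l1 and Bid), where 48.7% of the 15444 genes tested were called and 38.1% were called higher, so that the share among members was near the background. In Gli3-/-, 2 of the 9 rose (Bmf and Bcl2l11), against 25% of 15434 genes called and 15.8% called higher. The medians of the 9 were 0.46 in WT and 0.34 in Gli3-/-, beside 0.34 and 0.06 over all genes tested. For the interaction, the difference between the genotype effects at the 2 stages, limma called 0 of the 9 and 2.13% of 16368 genes, with 2 of the 9 (Bmf and Bax) and 3443 of all genes at an unadjusted p under 0.05, so that the share among members was near the background.

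The stage comparisons depended on scaling. The median of all genes tested was 0.34 higher at E10.5 in WT, and 78.3% of the genes called there were higher. That share was 49.3% with median-of-ratios size factors and 46.7% with quantile normalization, and in Gli3-/- it was 63.3%, 52.2% and 51.7%. At E9.25 the genotype calls were 80% higher, and 61.5% and 56.7% under these scalings, and of the interaction calls 22.4% were higher, and 36.7% and 47.5%. For members, the 4 higher and 0 lower calls in WT became 2 higher (Bmf and Bcl2l11) and 2 lower (Bax and Mcl1) with size factors, and 3 higher and 0 lower (Bmf, Bcl2l11 and Bcl2l1) with quantile normalization. For that reason the differences of members are also set against that of the median gene. When E9.25 WT replicate 2 was omitted, 5 of the 9 members were called between stages in WT, Bak1 being added, and 0 between genotypes at E9.25.

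**Figure D2:**
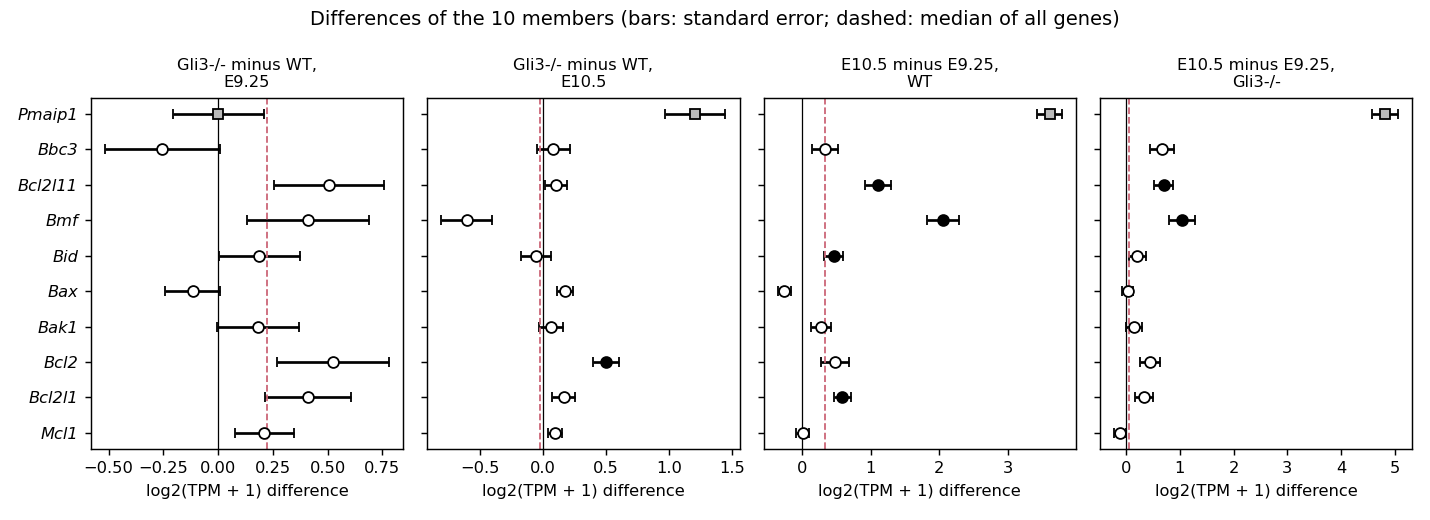
Differences in log2(TPM + 1) of the 10 members (rows) in 4 comparisons (panels, each with its own horizontal scale), with bars for the standard error; filled circles are members past an adjusted p of 0.05, open circles are members not past it, and the grey square is Pmaip1, which was not tested. The dashed line is the median of all genes tested, at 0.34 for stage in WT, and Bcl2 alone is filled for genotype at E10.5.

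Bmf encodes a BH3-only protein held at the cytoskeleton and set free by loss of attachment. It was 4.60, 2.47 and 4.84 TPM in E9.25 WT and 5.01, 6.37, 7.72 and 3.44 TPM in E9.25 Gli3-/-. At E10.5 it was 17.5, 14.6, 21.5 and 24.3 TPM in WT and 10.3, 16.7 and 10.54 TPM in Gli3-/-. All E10.5 libraries lay above all E9.25 libraries, and in Gli3-/- anterior buds 2 of the 3 libraries lay below every WT library. Bmf rose between stages by 2.06 (SE 0.24, adjusted p = 0.000432, limma) in WT, which was 1.72 above the median gene, and by 1.04 (SE 0.25, adjusted p = 0.0116) in Gli3-/-, which was 0.98 above it. At E10.5 its difference between Gli3-/- and WT was -0.61 (SE 0.20, adjusted p = 0.134), opposite in sign to that of Pmaip1, and its interaction was -1.02 (SE 0.37, adjusted p = 0.159), with neither past the threshold. In Gli3-/- the stage call was lost without E10.5 Gli3-/- replicate 2, the library highest in Bmf, at an adjusted p of 0.0646.

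Bcl2l11 encodes BIM, a BH3-only protein that binds all guardians and is induced when survival factors are withdrawn. It was 11.8, 6.03 and 8.66 TPM in E9.25 WT and 10.3, 15.6, 15.5 and 9.93 TPM in E9.25 Gli3-/-, and 20.2, 19.6, 19.4 and 19.0 TPM in E10.5 WT and 19.2, 23.0 and 21.0 TPM in E10.5 Gli3-/-. The stages did not overlap in either genotype, which held for 53.5% of all genes tested in WT and 35.7% in Gli3-/-, and the genotypes overlapped at both stages. Bcl2l11 rose between stages by 1.10 (SE 0.19, adjusted p = 0.00265) in WT, which was 0.77 above the median gene, and by 0.70 (SE 0.18, adjusted p = 0.0174) in Gli3-/-, which was 0.64 above it. The call in Gli3-/- was lost without E10.5 Gli3-/- replicate 2 (adjusted p = 0.0830) or replicate 3 (0.0555). Between genotypes at E10.5 its difference was 0.10 (SE 0.08, adjusted p = 0.558).

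Bbc3 and Bid were the least abundant of the other BH3-only members at E10.5. Bbc3 encodes PUMA, a BH3-only protein and, like NOXA, a p53 target. It lay between 3.07 and 6.34 TPM at E9.25 and between 5.78 and 8.11 TPM at E10.5. Its stage difference in Gli3-/-, 0.67 (SE 0.22), had an adjusted p of 0.0506 with the groups apart. It passed the threshold in 6 of 9 other settings, at 0.0314 with size factors. Of the 7 fits that omitted 1 library it passed in 2, without E9.25 Gli3-/- replicate 2 (0.0121) or replicate 3 (0.0492). The highest adjusted p among these 7 fits was 0.166. In WT the stages overlapped, with a difference of 0.33 (SE 0.19, adjusted p = 0.159). The levels of both p53 targets can be set side by side: in E10.5 Gli3-/- the 3 libraries held 7.39, 8.11 and 6.76 TPM of Bbc3 and 39.3, 81.1 and 74.5 TPM of Pmaip1. Bid, whose protein links death receptors to mitochondria once caspase 8 has cut it, was 5.10 to 7.88 TPM at E9.25 and 6.76 to 9.43 TPM at E10.5. It rose between stages in WT by 0.46 (SE 0.14, adjusted p = 0.0248), which was 0.12 above the median gene, and with quantile normalization the difference was -0.03 (adjusted p = 0.890). The call was also lost with median-of-ratios size factors (0.15, adjusted p = 0.442) and without E10.5 WT replicate 1 (adjusted p = 0.0570), replicate 3 (0.0733) or replicate 4 (0.0686). Bid overlaps Bcl2l13 on the other strand, and whether reads were assigned by strand is not given in the sources used here.

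The promoter windows of Bcl2l11 and Bmf are shown because these members rose between stages in both genotypes, and that of Bcl2 because it was the member called between genotypes at E10.5. RefSeq windows (GRCm38.p6, the build of the mm10 label) of 300 bases, from 250 before to 50 after a transcript start, were found for 9 of the 10 members, all but Pmaip1, and for 17 of the 20 family genes. Where a gene had several windows, that nearest the start of the gene in the deposited tables was used. Capitals mark matches on either strand to the motifs searched, which were the GLI consensus GACCACCCA, the E-box CACGTG, the FOXO motif GTAAACA, the box CCAAT, the p53 half-site and the TATA box, spelled TATAAA. The windows lie at chr2:128125788-128126087 (plus strand), chr2:118549637-118549936 (minus strand) and chr1:106714241-106714540 (minus strand), and each is printed 5′ to 3′ on the strand of its gene.
Bcl2l11: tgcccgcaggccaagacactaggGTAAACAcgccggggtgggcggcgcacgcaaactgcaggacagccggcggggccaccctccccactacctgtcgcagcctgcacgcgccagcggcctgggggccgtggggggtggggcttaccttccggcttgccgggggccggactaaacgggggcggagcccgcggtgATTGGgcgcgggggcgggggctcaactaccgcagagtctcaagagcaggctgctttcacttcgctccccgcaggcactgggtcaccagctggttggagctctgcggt
Bmf: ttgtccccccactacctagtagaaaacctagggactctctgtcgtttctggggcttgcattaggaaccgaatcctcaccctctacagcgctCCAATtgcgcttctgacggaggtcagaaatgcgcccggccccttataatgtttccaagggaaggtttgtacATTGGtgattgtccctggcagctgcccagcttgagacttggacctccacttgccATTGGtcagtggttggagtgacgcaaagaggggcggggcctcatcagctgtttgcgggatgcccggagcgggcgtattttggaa
Bcl2: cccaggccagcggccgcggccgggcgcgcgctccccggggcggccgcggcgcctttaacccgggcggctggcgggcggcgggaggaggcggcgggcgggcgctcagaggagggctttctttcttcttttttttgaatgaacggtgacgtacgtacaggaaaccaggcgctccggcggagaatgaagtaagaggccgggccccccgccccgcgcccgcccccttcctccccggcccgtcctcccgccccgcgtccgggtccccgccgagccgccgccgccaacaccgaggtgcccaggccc
The Bcl2l11 window held 1 FOXO match, a motif in 3.55% of 27025 mouse promoter windows, starting 227 bases before the transcript start, and 1 CCAAT match 57 bases before it. The Bmf window held 3 CCAAT matches, 159, 88 and 34 bases before the start, and no other motif, where 37.9% of all windows held CCAAT. The Bcl2 window held no match and was 76% G and C with 44 CG pairs, compared with medians of 52.7% and 7 over all windows. The GLI consensus was in 0.244% of all windows and in 0 of the 9 windows of members. Among the other members, Bax held 2 E-box matches and 1 p53 half-site, motifs found in 7.24% and 8.37% of all windows. These matches describe letters in a window and are not measured binding sites.

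Neither effector passed the threshold in the 5 comparisons, though Bax lay close to it for stage in WT. Bax was 146, 179 and 150 TPM in E9.25 WT, 135, 135, 157 and 156 TPM in E9.25 Gli3-/-, 136, 126, 140 and 125 TPM in E10.5 WT and 142, 149 and 154 TPM in E10.5 Gli3-/-. The genotypes did not overlap at E10.5, where Gli3-/- lay higher by 0.17 (SE 0.07, adjusted p = 0.191), and groups that did not overlap in either direction made up 19.3% of all genes tested there. Between stages in WT, E10.5 lay below E9.25 by a difference of -0.26 (SE 0.10, adjusted p = 0.0522), which was -0.60 relative to the median gene. With median-of-ratios size factors the stage difference was -0.60 (adjusted p = 0.0115), and Bax was also called without E9.25 WT replicate 1 (0.0346) and in 1 model of all libraries (0.0312). It was called in 1 of the 7 fits that omitted 1 library and in 2 of 9 other settings. Without E9.25 WT replicate 2, the library highest in Bax, the difference was -0.17 (adjusted p = 0.155). With quantile normalization it was -0.21 (adjusted p = 0.127). Bak1 lay between 33.6 and 53.8 TPM at E9.25 and between 43.4 and 54.5 TPM at E10.5, overlapped between groups in all 4 pairwise comparisons, and differed between genotypes at E10.5 by 0.06 (SE 0.09, adjusted p = 0.766). Bak1 overlaps Ggnbp1 on the other strand.

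Bcl2, the founding guardian, was the least abundant guardian among the members and the member called between genotypes at E10.5. It was 5.65, 5.77, 5.43 and 6.36 TPM in E10.5 WT and 8.36, 9.18 and 8.33 TPM in E10.5 Gli3-/-, with no overlap. The difference was 0.50 (SE 0.10, adjusted p = 0.0246), a ratio of mean TPM of 1.49. At E9.25 it was 5.18, 2.54 and 4.29 TPM in WT and 4.44, 8.40, 5.76 and 5.99 TPM in Gli3-/-, which overlapped, with a difference of 0.52 (SE 0.26, adjusted p = 0.243) that was 0.30 relative to the median gene. The call at E10.5 lay close to the threshold. Its difference was 0.46 to 0.54 in the 7 fits that omitted 1 library, but the adjusted p rose to 0.0765 without WT replicate 1, 0.0652 without WT replicate 3, and 0.0725, 0.0889 and 0.0847 without Gli3-/- replicates 1, 2 and 3.

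Bcl2l1, which encodes BCL-XL, rose between stages in WT. It was 33.7, 26.9 and 26.5 TPM at E9.25 and 43.8, 38.5, 47.6 and 46.0 TPM at E10.5, with no overlap, a difference of 0.59 (SE 0.12, adjusted p = 0.00592) that was 0.25 relative to the median gene. With median-of-ratios size factors the adjusted p was 0.0921. In Gli3-/- it was 29.6, 48.0, 47.0 and 33.6 TPM at E9.25 and 45.9, 53.7 and 48.5 TPM at E10.5, which overlapped (difference 0.34, SE 0.17, adjusted p = 0.182). Mcl1, the guardian that NOXA binds and that turns over rapidly as a protein, was 114, 91.3 and 97.1 TPM in E9.25 WT and 99.5, 99.4, 100.1 and 104 TPM in E10.5 WT. Its difference between stages in WT was 0.01 (SE 0.09, adjusted p = 0.958), and -0.33 against the median gene, and with median-of-ratios size factors it was -0.34 with an adjusted p of 0.0175. In Gli3-/- Mcl1 was 102 to 132 TPM at E9.25 and 104 to 111 TPM at E10.5.

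The summed TPM of each class shows where the family's RNA differed. The 5 BH3-only members together held 22.0 to 37.2 TPM at E9.25, 74.4 to 92.5 TPM in E10.5 WT and 84.3 to 136 TPM in E10.5 Gli3-/-. Pmaip1 made up 2.42 to 5.78% of that sum at E9.25, 28.3 to 37.5% in E10.5 WT and 46.6 to 60.9% in E10.5 Gli3-/-. Without Pmaip1, the other BH3-only members summed to 20.9 to 27.6 TPM in E9.25 WT and 23.3 to 36.3 TPM in E9.25 Gli3-/-. At E10.5 they summed to 48.8 to 57.8 TPM in WT and 45.0 to 54.6 TPM in Gli3-/-, which overlapped. The BH3-only sum was thus higher at E10.5 without Pmaip1 too. The 3 guardians summed to 121 to 188 TPM at E9.25 and 144 to 174 TPM at E10.5, and the 2 effectors to 169 to 228 TPM and 168 to 203 TPM. The ratio of summed BH3-only to guardian TPM was 0.158 to 0.218 at E9.25, 0.501 to 0.590 in E10.5 WT and 0.533, 0.781 and 0.740 in E10.5 Gli3-/-. These sums include Pmaip1, and were not tested.

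**Figure D3:**
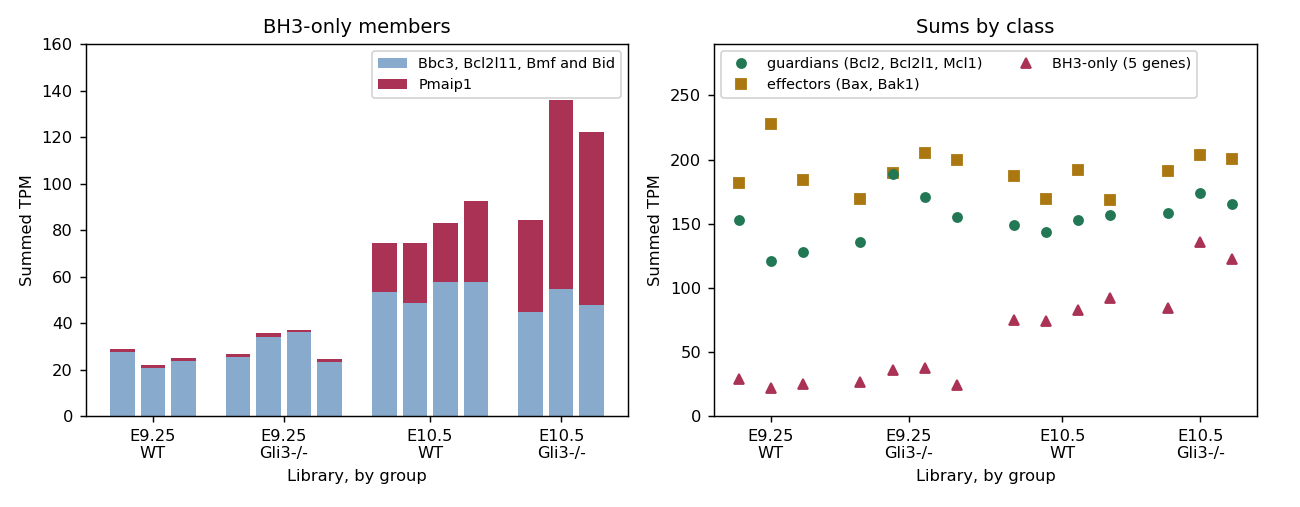
Left, summed TPM of the BH3-only members in each library (bars, from 0, grouped on the horizontal axis by stage and genotype), split into Pmaip1 and the other 4; right, summed TPM of BH3-only members, effectors and guardians in the same libraries (points). The part of the bar without Pmaip1 overlapped between genotypes at E10.5 (45.0 to 57.8 TPM over the 7 libraries), and guardians stayed between 121 and 188 TPM.

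RNA of other cell types moved with stage. The 6 macrophage markers summed to 0.0634 to 0.901 TPM at E9.25, where 0 of 6 had a group mean of at least 1 TPM and C1qa was at 0 in all libraries, and to 7.24 to 13.2 TPM at E10.5, where 4 of 6 did. The 4 muscle progenitor markers summed to 0.436 to 3.83 TPM at E9.25, with Myf5 at 0 in all WT libraries, and to 19.9 to 37.4 TPM at E10.5, where 3 of 4 had a mean of at least 1 TPM. In each stage comparison all 4 macrophage and all 3 muscle progenitor markers tested rose, beside 38.1% of all genes called higher in WT and 15.8% in Gli3-/-. The 4 macrophage markers and Myf5 were under 1 TPM in every E9.25 library, and Pax3 and Lbx1 were so in E9.25 Gli3-/-. There they passed the filter only through the E10.5 libraries, so that their rise was largely fixed by the filter. Between genotypes at E10.5 the ranges of the macrophage markers overlapped (7.24 to 13.2 TPM in WT, 10.8 to 11.7 TPM in Gli3-/-), while the 6 surface ectoderm markers summed to 194 to 229 TPM in WT and 279 to 310 TPM in Gli3-/-, with Fgf8 called higher. The higher sum came from Fgf8, whose mean was 59.1 TPM in WT and 153 TPM in Gli3-/-, while 4 of the 6 (Cdh1, Krt8, Krt18 and Wnt6) had lower means in Gli3-/- and were not called, and the median of the 6 was -0.18. The 5 limb mesenchyme markers summed to 495 to 624 TPM in WT and 399 to 446 TPM in Gli3-/-, with Prrx1, Prrx2 and Meis2 called lower and Fgf10 called higher. At E9.25 the 5 endothelial markers summed to 42.9 to 69.3 TPM in WT and 84.3 to 131 TPM in Gli3-/-, with 0 of the 5 called. The 5 erythroid markers summed to 6912 to 23430 TPM at E9.25, 10107 to 13825 TPM in E10.5 WT and 11936 to 33323 TPM in E10.5 Gli3-/-, with the highest sum in Gli3-/- replicate 3. The 4 neural markers summed to at most 15.0 TPM in any library, and Tubb3 alone had a group mean of at least 1 TPM. The part of these differences in the levels of the Bcl2 family was not tested.

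The rest of the family comprised Bad, Bik, Hrk, Bok, Bcl2l2, Bcl2l10 and the paralogs Bcl2a1a, Bcl2a1b, Bcl2a1c and Bcl2a1d. Of these 10, limma tested 4 between genotypes at E10.5 and called 1, beside 4.77% of all genes tested. The called gene was Bok, a relative of Bax and Bak1. Bok was 15.4, 12.8, 14.4 and 11.6 TPM in E10.5 WT and 21.4, 21.1 and 21.4 TPM in E10.5 Gli3-/-, with no overlap and a difference of 0.62 (SE 0.10, adjusted p = 0.0101) that kept its call with each library left out in turn. In 1 model of all 14 libraries the adjusted p was 0.0577. At E9.25 Bok was 21.6, 22.7 and 13.2 TPM in WT and 20.1 to 24.2 TPM in Gli3-/-, which overlapped, and its interaction was not called (0.36, SE 0.23, adjusted p = 0.351). Bad, a BH3-only gene controlled by phosphorylation of its protein, was called between stages in WT, with overlapping groups (0.50, SE 0.17, adjusted p = 0.0364). It was 24.7, 19.3 and 15.6 TPM in E9.25 WT and 23.3 to 30.7 TPM in E10.5 WT. The call of Bad was lost with both other scalings, without E10.5 WT replicate 1, 3 or 4, and without E9.25 WT replicate 2 or 3, at adjusted p of 0.0536 to 0.441. Bcl2l2, the guardian BCL-W, stayed between 8.15 and 12.9 TPM and was not called in any comparison; it overlaps Gm20521 on the same strand. Bik reached at most 1.85 TPM, Bcl2l10 1.11 TPM and Hrk 0.671 TPM. The Bcl2a1 paralogs, near-identical copies whose reads may be shared, were at most 0.454 TPM. Among 6 divergent relatives, 0 of the 4 tested were called between genotypes at either stage. Between stages in WT Bcl2l12 and Bcl2l13 rose, where 48.7% of all genes tested were called and 38.1% were called higher. The mitophagy receptor gene Bnip3 fell in WT by 0.79 (SE 0.16, adjusted p = 0.00528, limma), with 97.8 to 152 TPM at E9.25 and 58.5 to 77.1 TPM at E10.5. The call of Bcl2l13 was lost with both other scalings (adjusted p = 0.345 and 0.211) and without E10.5 WT replicate 1 (0.0530) or 4 (0.0517).

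Downstream of the mitochondrion, none of the 12 apoptosome and caspase genes was called between genotypes at E9.25 or at E10.5, or for the interaction, by limma. Between stages in WT, 6 of 12 rose and 3 fell, where 48.7% of all genes were called and 38.1% were called higher. Apaf1, the apoptosome scaffold, was at most 11.7 TPM in every E9.25 WT library and at least 15.2 TPM in every E10.5 WT library, a difference of 0.82 (SE 0.18, adjusted p = 0.00805). Casp9, its initiator caspase, differed by the same 0.82 (SE 0.19, adjusted p = 0.00810), with 4.57 to 8.22 TPM at E9.25 and 11.2 to 13.5 TPM at E10.5. Of the executioner caspases, Casp6 rose in WT by 0.90 (SE 0.09, adjusted p = 0.000241) and in Gli3-/- by 1.05 (SE 0.11, adjusted p = 7.31e-05), from 28.3 to 36.4 TPM over all E9.25 libraries to 59.5 to 69.6 TPM over all E10.5 libraries. Casp2 also rose in both genotypes. The 3 genes that fell, Cycs, Htra2 and Diablo, encode proteins released from mitochondria. Cycs, cytochrome c, fell by 0.93 (SE 0.10, adjusted p = 0.000350, limma) in WT, from 114, 134 and 126 TPM to 61.8, 73.6, 60.4 and 64.2 TPM. Aifm1 and Endog, which also encode released proteins, were not called between stages in either genotype. In Gli3-/- Cycs, Htra2 and Diablo also fell, and 4 of the 12 rose, beside 25% of all genes called and 15.8% called higher. The median of the 12 was 0.22 in WT and 0.36 in Gli3-/-, beside 0.34 and 0.06 over all genes tested. With median-of-ratios size factors the WT call of Casp2 (adjusted p = 0.115) was lost, and with quantile normalization that of Casp9 (0.0624). The call of Diablo in WT was lost without E9.25 WT replicate 3 or without any 1 of the 4 E10.5 WT libraries. In Gli3-/- the calls of Casp2 and Cycs were lost without E9.25 Gli3-/- replicate 4 or any 1 of the 3 E10.5 libraries, and that of Diablo without E9.25 replicate 4 or E10.5 replicate 2 or 3, at adjusted p of 0.0531 to 0.112. Of 5 caspase inhibitors, Xiap (0.88, SE 0.24, adjusted p = 0.0162) and Birc3 (0.41, SE 0.14, adjusted p = 0.0412) rose in WT, and 0 were called in Gli3-/- or between genotypes, by limma. The share that rose in WT was near the 38.1% of all genes called higher there. The difference of Birc3 was -0.08 with quantile normalization, and its call was lost without E9.25 WT replicate 2 or any 1 of the 4 E10.5 WT libraries, at adjusted p of 0.0575 to 0.114.

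Upstream, most genes of the p53 response were not called at E10.5. Of its 15 genes, 14 were tested there, and 1 was called higher and 1 lower in Gli3-/-. Over all genes tested, 4.77% were called and 1.84% were called higher. The median of the list was -0.04, beside -0.02 over all genes. Cdkn1a, the p53 target and cell cycle inhibitor p21, was 8.03, 9.18, 7.92 and 9.11 TPM in WT and 19.6, 17.1 and 18.8 TPM in Gli3-/-. It rose by 1.03 (SE 0.10, adjusted p = 0.000643), and its interaction was 1.27 (SE 0.22, adjusted p = 0.00650), with genotypes that overlapped at E9.25. Trp53inp1, a stress-induced p53 cofactor, was 19.2, 22.9, 21.1 and 32.2 TPM in WT and 11.1 to 13.3 TPM in Gli3-/-, and fell by 0.86 (SE 0.16, adjusted p = 0.0171). That call was lost without Gli3-/- replicate 1 (adjusted p = 0.0623) or replicate 3 (0.0558). It was also lost with 1 model of all 14 libraries (0.183), with no filter on low TPM (0.0736) and with the block by title numbers (0.0502). Trp53 itself was 159 to 191 TPM in WT and 191 to 226 TPM in Gli3-/-, a difference of 0.25 (SE 0.09, adjusted p = 0.157) with overlap. Pmaip1 and Cdkn1a both had higher mean TPM in Gli3-/- than in WT anterior buds, at ratios of 2.44 and 2.16, while Bbc3, a p53 target too, had a ratio of 1.06. Among the other targets listed, mean TPM was higher in Gli3-/- for Zmat3, Eda2r and Gtse1 and near equal for Aen. It was lower for Trp53inp1, Perp, Sesn2, Ccng1, Phlda3, Tnfrsf10b and Fas, and of all these only Trp53inp1 was called. A link of Pmaip1 to p53 was not tested.

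Between stages the p53 genes again moved in both directions. In WT 4 of 15 rose and 3 fell, a share near the 48.7% of all genes called, with a median of 0.16 beside 0.34 over all genes. Trp53inp1 rose by 2.89 (SE 0.36, adjusted p = 0.000563), from 2.57, 0.770 and 4.62 TPM, and Zmat3 by 0.73 (SE 0.27, adjusted p = 0.0497), while Fas, a death receptor gene, fell by 1.02 (SE 0.18, adjusted p = 0.00318) and the nuclease gene Aen by 0.71 (SE 0.12, adjusted p = 0.00207). The call of Zmat3 was lost with each library left out in turn other than E9.25 WT replicate 1, at adjusted p of 0.0746 to 0.103, and with both other scalings. In Gli3-/- 2 rose, Trp53inp1 and Cdkn1a, and 3 fell, Fas, Aen and Phlda3, beside 25% of all genes called and 15.8% called higher. The call of Fas was lost without E10.5 Gli3-/- replicate 2 (adjusted p = 0.0536) and that of Phlda3 without E10.5 Gli3-/- replicate 1 (0.0515). Trp53 did not pass in either genotype, at 0.22 (SE 0.12, adjusted p = 0.141) in WT and 0.23 (SE 0.15, adjusted p = 0.298) in Gli3-/-.

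Of 12 transcription factors known to act on BH3-only genes or on growth, 10 were tested. Between genotypes at E10.5, 1 was called, beside 4.77% of all genes tested. Atf4, the factor of the integrated stress response, was called at E10.5, at 115, 107, 116 and 113 TPM in WT and 137, 131 and 139 TPM in Gli3-/-, a difference of 0.26 (SE 0.06, adjusted p = 0.0379). That call was lost with any of the 7 libraries left out, at adjusted p of 0.0589 to 0.175. Between stages Myc fell by 1.66 (SE 0.17, adjusted p = 0.000277) in WT and by 2.06 (SE 0.15, adjusted p = 9.36e-06) in Gli3-/-, from 37.6 to 75.9 TPM over the E9.25 libraries to 11.8 to 17.8 TPM over the E10.5 libraries. Atf3 fell by 1.06 (SE 0.23, adjusted p = 0.00704) in WT and by 1.36 (SE 0.17, adjusted p = 0.000272) in Gli3-/-. Foxo1, a factor that induces Bcl2l11 when growth signals are low, rose by 0.71 (SE 0.18, adjusted p = 0.0115) in WT and 0.48 (SE 0.15, adjusted p = 0.0447) in Gli3-/-, and Jun rose in WT by 0.82 (SE 0.20, adjusted p = 0.0119). The Gli3-/- call of Foxo1 was lost with each library left out in turn other than E9.25 Gli3-/- replicate 2, and with quantile normalization the WT calls of Foxo1 (adjusted p = 0.341) and Jun (0.0934) were lost. In WT 3 of the 10 rose and 4 fell, beside 48.7% of all genes called, with a median of 0.28 beside 0.34 over all genes. Of 8 death receptor genes, 5 were tested, 0 were called between genotypes, and Cflar and Tnfrsf1a rose between stages in both genotypes. Over all genes tested, 38.1% were called higher between stages in WT and 15.8% in Gli3-/-, so that the share in WT was near the background. Cflar, which encodes an inhibitor of caspase 8, rose in WT by 0.83 (SE 0.18, adjusted p = 0.00615). The WT call of Tnfrsf1a was lost with both other scalings, without E9.25 WT replicate 3 and without E10.5 WT replicate 1, 3 or 4, and its Gli3-/- call without E9.25 Gli3-/- replicate 4 or any 1 of the 3 E10.5 libraries. The ligand genes Fasl and Tnfsf10 were listed at 0 in every library.

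**Figure D4:**
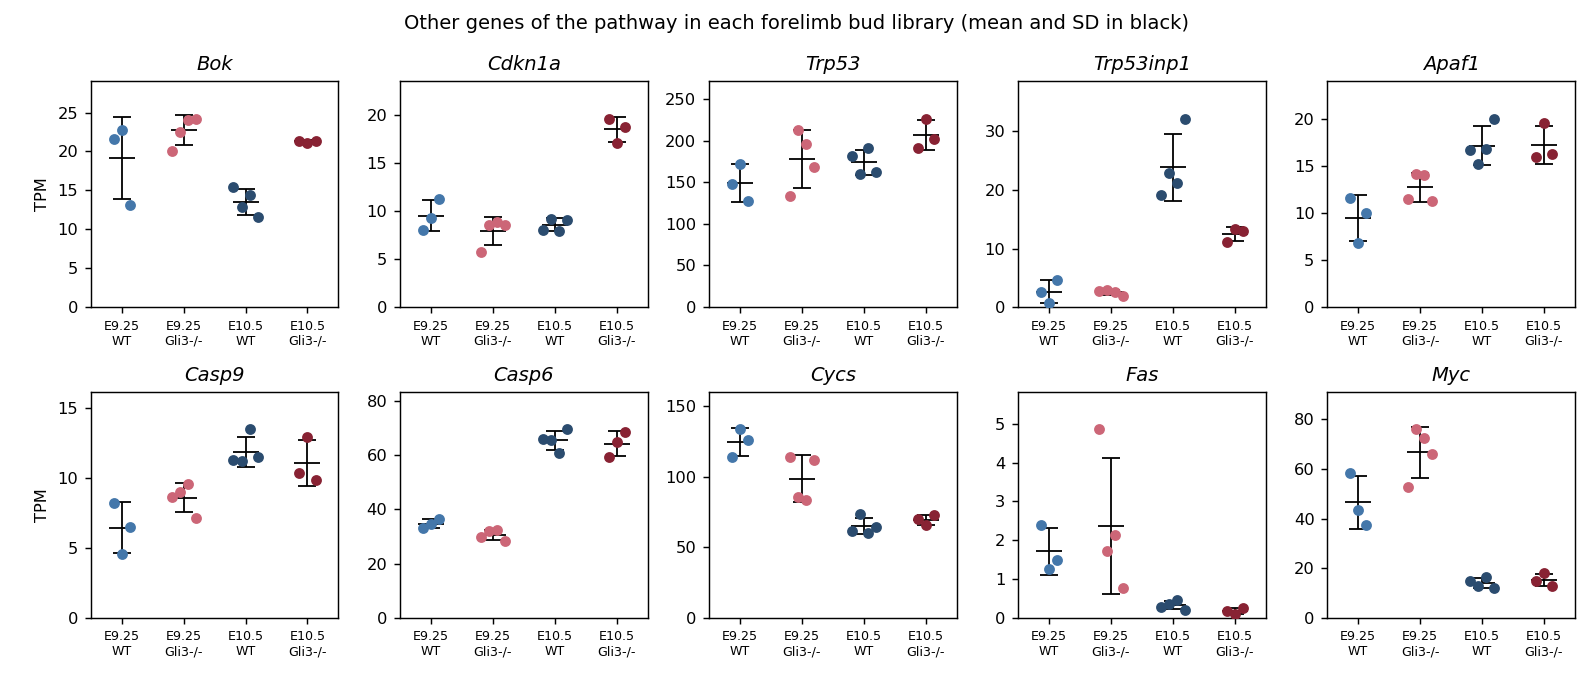
TPM of 10 other genes of the pathway (one panel each, vertical axis from 0) in every library of the 4 groups on the horizontal axis; points are libraries, and black bars are the mean and SD. Bok and Cdkn1a were higher in the E10.5 Gli3-/- libraries than in any E10.5 WT library, Trp53inp1 was lower, and Casp6 and Myc differed between stages in opposite directions.

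Genes with a pattern like that of Pmaip1 were ranked by Pearson's r of log2(TPM + 1) over the 14 libraries, among 16368 genes. The highest were Gm27207 (0.990), Enpp3 (0.989), Fbxo41 (0.989), Cbln1 (0.989) and Wipi1 (0.988). Cbln1, for example, had mean TPM of 0.445 and 0.730 in E9.25 WT and Gli3-/- and of 8.12 and 19.7 in E10.5 WT and Gli3-/-. Of the members, Bmf had an r of 0.830 and Bcl2l11 of 0.827, at ranks 1507 and 1551, and Bax of -0.360. These values rest mainly on the 4 group means. With the group means removed, the highest were 2610035D17Rik (0.897), Gcnt4 (0.856), Angptl1 (0.845), Lxn (0.838) and Raet1d (0.826), and Bmf stood at 0.391 and Bcl2 at 0.334. All are descriptions over libraries that share their groups and depth, with no test.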

How the data were processed

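RNA-seq was analysed in 14 libraries of forelimb buds (E9.25 WT 3, E9.25 Gli3-/- 4, E10.5 WT 4, E10.5 Gli3-/- 3), grouped by the labels. Other assays of the series were not used here. Reads were aligned by the authors with HISAT2, and the study used DESeq2. The genome build was mm10 per the labels. The tool that made the gene tables, its annotation release and its strand setting are not given in the sources used here.

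The authors deposited 1 gene table per library with TPM values, scaled so that every library has an equal sum. The tables the authors deposited also hold FPKM values, scaled by gene length and library size. As the authors deposited it, coverage is the mean read depth per base of each gene with no scaling. The depth of each library was estimated from the ratio of coverage to FPKM at a read length of 100 bases. No read counts were used, so that no count model was fitted. Rows of one gene ID were summed.

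TPM was transformed to log2(TPM + 1). The filter kept genes that reached a TPM of 1 in 3 or more libraries of a comparison. These were fitted with limma 3.58.1 in R 4.3.3 (lmFit, then eBayes with a mean trend) for 5 comparisons: genotype at E9.25, genotype at E10.5, stage in WT, stage in Gli3-/- and the interaction over all 14 libraries. P-values are two-sided, adjusted by the Benjamini-Hochberg method over all genes of a comparison, with a threshold of 0.05. The script was tested on simulated data. Each library is a pool of buds by the labels, and p-values measure the spread between pools.

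The members and lists were chosen with earlier results of these data known. Besides the members, Trp53, Apaf1 and Casp9 are named, up to 4 genes per list and comparison with the largest called difference and groups that do not overlap, and the 5 genes most like Pmaip1 on each of 2 measures. Genes named outside that rule (Bad, Birc6, C1qa, Myf5 and Tubb3, and genes given as absent, low, called or not called with no value) were chosen after their values were seen. Some genes that the rule named are not reported here. The alternatives tried were no filter, a TPM minimum of 5, a pseudocount of 0.1, no trend, median-of-ratios size factors, quantile normalization, 1 model of all libraries, a replicate block, each library left out in turn, and sample quality weights. Promoter windows came from RefSeq (GRCm38.p6) and were scanned with Python 3.11.15.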

Additional observations from a re-analysis of the deposited data

Results flagged for a closer look

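Mcl1 in E10.5 WT was flagged because 1 library lay far from the other 3 of its group relative to the group's range: replicate 4 held 104 TPM (104.294), and the others 99.4 to 100.1 TPM. The whole group spanned less than 5 TPM. Of the 20 groups of 4 libraries tested this way, 1 was flagged, and chance flags about 1 in 20.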

How the results depend on the processing

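Pmaip1 is given with no test, and members called are counted over the 9 others. Under the alternatives 869 differences were recomputed, those of Pmaip1 included, and 790 were labelled unchanged. For the 9 others this means the same direction and side of the threshold. For Pmaip1, which has no threshold, it means a shift smaller than its spread within groups. At E10.5, 1 member was called between genotypes, but 0 with no filter on low TPM, 0 with 1 model of all 14 libraries and 0 with a replicate block, and 2 (Bcl2 and Bmf, adjusted p of Bmf 0.0288) with sample quality weights, an alternative chosen after seeing the data. In Gli3-/-, 2 members were called between stages, and 5 with quality weights. Leaving out 1 library at a time gave 0 to 1 calls at E10.5, 0 to 4 for stage in Gli3-/- (0 without E10.5 replicate 2, 4 without E9.25 replicate 2), 3 to 6 for stage in WT, 0 to 0 at E9.25 and 0 to 0 for the interaction. The cause of these changes was not tested.

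Members that changed sign were not called in the results reported, with the exception of Bid for stage in WT. With median-of-ratios size factors, which remove the shift of the median gene, the log2 difference became at E9.25 -0.017 for Bid, -0.050 for Bak1 and -0.024 for Mcl1, for stage in WT -0.063 for Bak1 and -0.34 for Mcl1, for stage in Gli3-/- -0.039 for Bax, and for the interaction 0.15 for Bak1, 0.19 for Bcl2, 0.019 for Bcl2l1 and 0.16 for Mcl1. With quantile normalization it became at E9.25 -0.087 for Bid and -0.0062 for Bak1, at E10.5 0.023 for Bid, for stage in WT -0.17 for Bbc3, -0.034 for Bid, -0.057 for Bcl2 and -0.012 for Mcl1, and for the interaction 0.11 for Bid, 0.054 for Bak1 and 0.37 for Bcl2. With quality weights it became at E10.5 -0.045 for Bbc3, 0.0065 for Bid and -0.037 for Bak1, for stage in Gli3-/- -0.040 for Bax, and for the interaction 0.12 for Bcl2. With 1 library left out, the ranges that crossed 0 were -0.16 to 0.055 for Bid and -0.00043 to 0.12 for Bak1 at E10.5, -0.061 to 0.097 for Mcl1 for stage in WT, -0.0052 to 0.068 for Bax for stage in Gli3-/- and -0.19 to 0.21 for Bcl2 for the interaction.

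The labels do not tie replicate numbers to a shared litter or day, and same-numbered libraries did not deviate together (mean r of deviations -0.17 at E9.25 and -0.05 at E10.5 by the title numbers). At E10.5 the numbers in the table names gave 0.17 (lowest 0.05). With the replicate block, 0 members were called at E9.25, 0 at E10.5 by either numbering, 3 for stage in WT, 3 for stage in Gli3-/- (Bbc3 added) and 0 for the interaction. The block by title numbers also lost the calls of Bid for stage in WT (adjusted p = 0.107) and of Bok at E10.5 (0.110), and Mcl1 for stage in WT became -0.0097 and Bcl2 for the interaction 0.014.

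Over all genes, the calls ranged over the alternatives other than left-out libraries from 0 to 1185 at E9.25 (20 reported, 1185 with 1 model of all libraries), 164 to 1356 at E10.5 (747), 4699 to 8556 for stage in WT (7520), 2876 to 6520 for stage in Gli3-/- (3853) and 42 to 830 for the interaction (348). With 1 library left out they ranged from 2 to 196, 301 to 680, 5139 to 8305, 2129 to 4326 and 150 to 1433. The depth did not limit the abundant members, but Pmaip1 at E9.25 and the relatives near 1 TPM rest on few reads.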
